A study of Mus musculus with 2 samples.

Results

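The small RNAs described here are fragments of mitochondrial transcripts in the fetal mouse testis. Their genes were the 37 genes of the GENCODE mouse M21 annotation whose names start with mt-, out of 55450 genes in all. They comprise 22 tRNA, 2 rRNA and 13 protein-coding genes, and every one lies on the mitochondrial chromosome. A sequenced small RNA of 16 to 48 nt was counted when it matched one of their transcripts without a mismatch, on either strand. The question was which of these transcripts gave fragments, from which strand and part of the molecule, and how the fragments differed between wild-type (WT) and Hsp90α knockout (KO) testes at each length. HSP90α is a chaperone protein encoded by Hsp90aa1, and the study used its knockout to follow small RNAs, among them PIWI-interacting RNAs (piRNAs) of germ cells.

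Both libraries were made from whole testes at embryonic day 16.5 of C57BL/6 mice obtained by natural mating, with 20 testes pooled for each genotype. The labels name no allele and no treatment beyond the genotype. Whole testes hold germ cells and somatic cells together, so fewer cells of a type and less RNA per cell cannot be told apart. There was 1 library per genotype and hence no replicate check, so each test below compares these libraries, covers counting error only, and does not compare genotypes over animals. The reads carried no molecular identifiers, and reads copied from 1 molecule were counted separately.

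Mitochondrial DNA is transcribed from both strands into long RNAs that run through many genes. In most places a tRNA lies between neighbouring rRNA or mRNA genes, and release of the tRNA frees the others: the mitochondrial RNase P (TRMT10C, HSD17B10 and PRORP) cuts at the tRNA 5′ end and ELAC2 cuts at the 3′ end. TRNT1 then adds the bases CCA, which the mitochondrial DNA does not encode, and TRMT10C with HSD17B10 also methylates the purine at position 9 of many of these tRNAs. Fragments of mature tRNAs commonly arise from cuts in the anticodon loop.

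The libraries held 6409305 reads (WT) and 5589326 reads (KO), of which 2523084 and 2561491 matched miRNA hairpins. A count of 0 therefore allowed up to 1.19 (WT) and 1.17 (KO) reads per 1000000 miRNA reads. As a check of the tissue label, miRNA genes of gonadal support cells (Mir202 and Mir140) had 2804 and 2982 reads per 1000000 miRNA reads in WT and KO, and the germ cell miRNA genes of the Mir290a group were detected in 5 of 5 that could be searched, with 639 and 858 in sum. A further listed gene, Mir292a, had no entry under that name in the annotation. The red blood cell list (2 of 2 genes detected) had 274 and 219, the muscle list (4 of 4, with related genes sharing reads) 39.6 and 33.96, and the liver gene Mir122 6.34 and 0.390. Their part in the mitochondrial values was not tested. Fragments of Hsp90aa1 itself numbered 2 (WT) and 10 (KO) reads, and those of Hsp90ab1, which encodes HSP90β, 32 and 37. Fragments of mRNA do not check a knockout, so the genotype labels could not be checked here.

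The sequences that carried most of the reads are shown first. For the 6 tRNAs with the most sense reads, the whole reference tRNA is given 5′ to 3′, with the most abundant fragment of each in capitals. All of these fragments began at the first base of the tRNA.
mt-Tm (chrM:3845-3875, plus strand): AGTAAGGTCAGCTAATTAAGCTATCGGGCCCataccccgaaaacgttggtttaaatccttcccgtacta
mt-Ty (chrM:5296-5326, minus strand): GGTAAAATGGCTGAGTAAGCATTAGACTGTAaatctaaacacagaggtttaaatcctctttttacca
mt-Ts2 (chrM:11613-11644, plus strand): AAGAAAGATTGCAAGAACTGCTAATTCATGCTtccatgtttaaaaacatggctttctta
mt-Tq (chrM:3807-3842, minus strand): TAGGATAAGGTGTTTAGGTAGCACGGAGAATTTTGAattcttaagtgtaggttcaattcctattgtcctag
mt-Tl1 (chrM:2676-2692, plus strand): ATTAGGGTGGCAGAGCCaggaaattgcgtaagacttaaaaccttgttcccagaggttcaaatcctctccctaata
mt-Ts1 (chrM:6918-6938, minus strand): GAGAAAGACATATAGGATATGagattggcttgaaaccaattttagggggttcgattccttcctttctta

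For the rRNAs, the most abundant fragment of the large rRNA mt-Rnr2 also began at the first base of its gene. It is shown in capitals after the last 20 bases of the neighbouring tRNA mt-Tv, because the fragment starts where the tRNA ends (chrM:1074-1118, plus strand). The most abundant fragment of the small rRNA mt-Rnr1 was a 17-nt sequence at its own first base (chrM:70-86, plus strand), with 6 reads in each library. All coordinates are those of GENCODE M21 on GRCm38, whereas the submitters' processing notes name mm9.
mt-Tv end and mt-Rnr2 start: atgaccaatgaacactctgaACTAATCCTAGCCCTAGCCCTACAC
mt-Rnr1 start: AAAGGTTTGGTCCTGGC

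Mitochondrial fragments were mostly sense, and their level relative to miRNAs was lower in the KO library. Sense fragments had 3321 reads (WT) and 2514 reads (KO), which is 1316 and 981 reads per 1000000 miRNA reads. The KO/WT ratio of these levels was 0.746 (95% interval 0.708 to 0.786; exact binomial test, two-sided, p = 7.37e-29). All KO/WT ratios below are on this scale unless another is named. Antisense fragments were far fewer, with 209 (WT) and 160 (KO) reads and a KO/WT of 0.754 (0.610 to 0.931; exact binomial p = 0.00785). The sense share was 94.1% in WT and 94.0% in KO (Fisher's exact test, p = 0.914).

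These values depended on what they were set against. The transcripts used hold no nuclear tRNA genes, which are thus absent from the structural RNAs below and from every check for further matching genes. Fragments of nuclear structural RNAs (rRNA, snRNA, snoRNA and other small noncoding genes outside mitochondria) had a lower KO/WT (0.620, 0.611 to 0.629) than mitochondrial fragments, so that per structural RNA read the mitochondrial KO/WT was 1.20 (1.14 to 1.27; Fisher's exact p = 1.87e-11). On that scale the ratios by kind of transcript and by length given below were also above 1, except at 34 to 48 nt, where it was 0.377. For tRNA (1.08), mRNA (1.07) and antisense fragments (1.22) they were within counting error of 1 (exact binomial p = 0.124, 0.517 and 0.0615). Per read of the whole library the mitochondrial KO/WT was 0.868. The difference from the structural RNAs rested on 1 snoRNA gene, Gm26202: without it the quotient of mitochondrial over structural KO/WT was 1.01 (0.955 to 1.06; Fisher's exact p = 0.762). The structural KO/WT was then 0.739, above the 0.667 of tRNA and 0.666 of mRNA fragments and below the 0.797 of rRNA fragments. Against all reads other than miRNA the quotient was 1.03 (0.973 to 1.08; Fisher's exact p = 0.354). These quotients hold for exact matches only. With the tRNA ends carrying added C, CC or CCA counted (chosen once the data had been seen), the mitochondrial KO/WT was 0.645 (0.622 to 0.669), beside 0.739 for the structural RNAs without Gm26202 and 0.728 for all remaining reads other than miRNA. The quotients were then 0.872 (0.838 to 0.908) and 0.887 (0.854 to 0.920), so that the mitochondrial ratio was the lower one. A single 38-nt mt-Tv sequence, given below, held 1129 of the 7131 WT reads and 226 of the 4670 KO reads behind it. The quotients without that sequence were not computed, so how far the lower ratio rests on it is not known.

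The sense reads came from 1201 distinct sequences, 795 in WT and 554 in KO, and 148 of them were in both. No sequence matched more than 1 mitochondrial gene. A further gene of the annotation, such as a nuclear copy of mitochondrial DNA, was matched by sequences with 147 (WT) and 105 (KO) reads, whose origin could not be told apart.

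Among exact matches, ribosomal RNA gave the most fragments and tRNA the next most. With tRNA ends carrying added C, CC or CCA counted as well, the tRNAs had 4897 (WT) and 2892 (KO) reads, more than the rRNAs. The 2 rRNAs had 2018 (WT) and 1632 (KO) sense reads, or 60.8% and 64.9% of the sense reads, with a KO/WT of 0.797 (0.746 to 0.851). The tRNAs had 1087 and 736 reads, 32.7% and 29.3%, with a KO/WT of 0.667 (0.607 to 0.733). The 13 mRNAs had 216 and 146 reads, with a KO/WT of 0.666 (0.536 to 0.825), which became 0.427 when a sequence needed 2 reads in a library to be counted. The KO/WT of tRNA fragments was lower than that of rRNA fragments by a factor of 0.837 (0.747 to 0.938; Fisher's exact p = 0.00237).

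**Figure D1:**
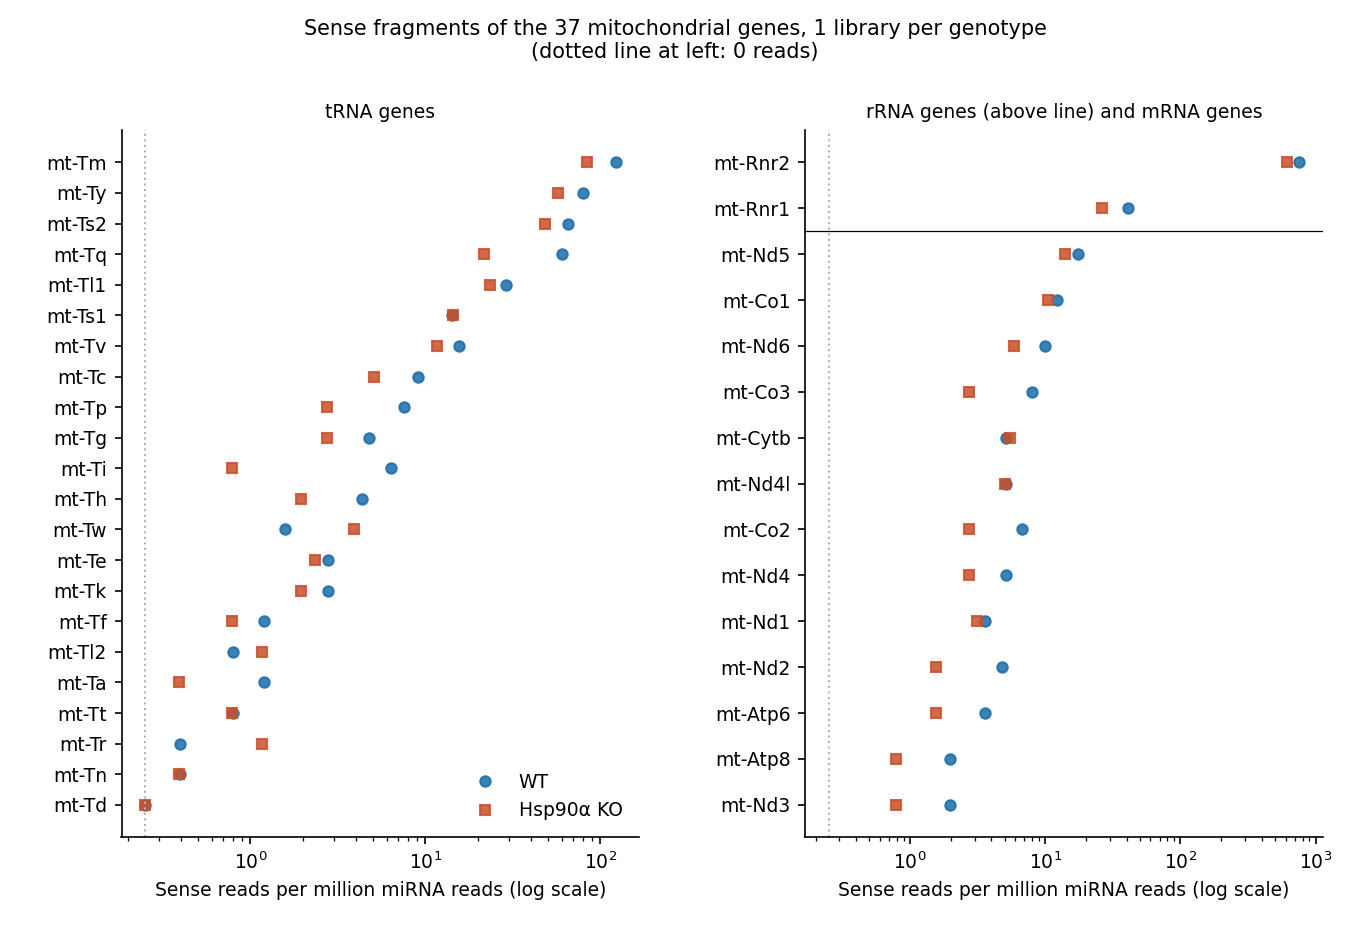
Sense reads per 1000000 miRNA reads (log axis) for the 22 tRNA genes (left) and the 2 rRNA and 13 mRNA genes (right), with 1 point for the WT library and 1 for the Hsp90α KO library. Levels range from 0 reads for mt-Td to 759 (WT) and 611 (KO) for mt-Rnr2, and most KO points lie to the left of their WT points.

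The genes gave very unequal numbers of fragments. Sense reads were found for 36 of the 37 genes, in both libraries for each of the 36. The exception was mt-Td, the aspartate tRNA, with 0 reads in either library. Every sense read of mt-Co2, mt-Co3, mt-Atp6 and mt-Nd4l also matched a further gene outside the mitochondrial set. The origin of these reads could not be told apart. The 11 genes with at least 50 reads had a median KO/WT of 0.758, beside 0.732 for all 689 genes of the annotation with as many reads and 0.728 for 59 nuclear structural RNA genes. Of the 11, 2 (mt-Tq and mt-Rnr1) had a KO/WT below 1/1.5 and 0 had one above 1.5. Among all 689 genes, 44.3% lay below 1/1.5 and 1.45% above 1.5, and among the structural RNA genes 40.7% and 0%. The share of mitochondrial genes past 1.5-fold was therefore not above the background. The 11 genes kept reads shared with further genes, whereas the 689 used reads that match 1 gene alone. On reads that match no other gene, mt-Tl1 was also below 1/1.5 (0.665). The other 26 genes held 252 (WT) and 150 (KO) reads together.

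Among the tRNAs, mt-Tm, the methionine tRNA, had the most exact sense reads, with 309 in WT and 216 in KO (KO/WT 0.689, 0.576 to 0.822). The tyrosine tRNA mt-Ty had 201 and 147 reads (0.720, 0.578 to 0.896). The serine tRNA mt-Ts2, which lacks a D-arm, had 165 and 124 reads (0.740, 0.582 to 0.940). These 3 tRNAs were lower in KO by similar amounts, with overlapping intervals. The glutamine tRNA mt-Tq had 153 reads in WT and 55 in KO, and its KO/WT of 0.354 (0.255 to 0.485) was the lowest of the 11 genes. The leucine tRNA mt-Tl1 had 73 and 60 reads (0.810, 0.566 to 1.16), and the serine tRNA mt-Ts1 had 36 and 37 reads (1.01, 0.622 to 1.65), the highest of the 11. For mt-Tl1 and mt-Ts1 the intervals included 1. Of the mt-Tl1 reads, only 40 (WT) and 27 (KO) matched no other gene, and on these its KO/WT was 0.665 (0.392 to 1.11). The median fragment was 36 nt for mt-Tq and 21 nt for mt-Ts1, so the tRNA with the lowest KO/WT had the longer fragments and the tRNA with the highest the shorter ones.

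Exact sense fragments of tRNAs were mostly from the 5′ side, while 3′ ends carrying CCA do not match exactly and are given further on. A fragment that began at the first annotated base was counted as 5′, one that ended at the last base as 3′, and any other as inner. Sense tRNA fragments were 84.6% 5′ in WT (920 reads; 95% Wilson interval 82.4% to 86.7%) and 84.6% in KO (623 reads; 81.9% to 87.1%). Inner fragments made 14.1% and 14.0%, and fragments with an encoded 3′ end 1.29% and 1.36%. Neither the 5′ share nor the 3′ share differed beyond counting error between the libraries (Fisher's exact p = 1 for each). Whole tRNAs, of 59 to 75 nt, were longer than the longest sequence of 48 nt that the files held and could not be seen.

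The 5′ fragments ended near the anticodon. In WT 85.1% of them (783 reads) and in KO 77.8% (485 reads) ended within 5 nt of the anticodon, on either side or inside it, and their KO/WT was 0.610 (0.544 to 0.684). Those ending earlier had 125 and 137 reads and a KO/WT of 1.08 (0.841 to 1.39). The capitals in the sequences above show the ends: position 31 in mt-Tm, whose anticodon is at 31 to 33, and position 31 in mt-Ty, where the anticodon spans 29 to 31. The mt-Tm fragment had 207 (WT) and 140 (KO) reads and the mt-Ty fragment 194 and 138. For mt-Tq the main ends were at 36 (63 and 17 reads) and 37 (56 and 13 reads), just after an anticodon at 33 to 35. By contrast, the main 5′ fragments of mt-Tl1 (17 nt, 17 and 22 reads) and mt-Ts1 (21 nt, 11 and 17 reads) ended well before the anticodon. The 17-nt mt-Tl1 sequence also matched another gene of the annotation.

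Mature tRNA 3′ ends carry CCA and so do not match the gene exactly. A search for sequences that matched the last 16 or more bases of a mitochondrial tRNA followed by C, CC or CCA found more reads than all the exact sense matches in WT. Fragments ending in CCA had 3640 (WT) and 2062 (KO) reads in 228 distinct sequences, with a KO/WT of 0.558 (0.528 to 0.589). Those ending in CC had 150 and 90 reads, those ending in C 20 and 4, and those ending at the encoded base 14 and 10. CCA was on 95.2% of the 3′-end fragments in both WT and KO (Fisher's exact p = 1). No sequence with such an added tail matched another gene of the annotation.

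The tRNAs that led the CCA fragments were not those that led the exact 5′ fragments. Exact counts leave out reads with a mismatch at tRNA position 9, described further on. In WT this was so for 45 of 54 mt-Tv reads and 4 of 4 mt-Tw reads that covered the position. The valine tRNA mt-Tv had 1462 (WT) and 450 (KO) reads ending in CCA (KO/WT 0.303, 0.272 to 0.337), beside 39 and 30 exact reads. The tryptophan tRNA mt-Tw had 1454 and 1120 reads ending in CCA (0.759, 0.701 to 0.821), beside 4 and 10 exact reads. Of the other tRNAs, mt-Tm had 201 and 93, mt-Tg 173 and 52, and mt-Te 154 and 121. The 5′-rich mt-Ty had 7 and 22, and mt-Tq had 14 and 30. The main sequences of mt-Tv, mt-Tw and mt-Tm are given below with the added CCA in capitals, to show where each began.
mt-Tv, from position 35 (encoded part chrM:1059-1093, plus strand): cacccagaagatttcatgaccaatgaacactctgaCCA
mt-Tw, from position 38 (chrM:4987-5016, plus strand): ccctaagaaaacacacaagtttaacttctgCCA
mt-Tw, from position 49 (chrM:4998-5016, plus strand): cacacaagtttaacttctgCCA
mt-Tm, from position 36 (chrM:3880-3913, plus strand): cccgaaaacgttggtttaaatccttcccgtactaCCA

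These 3′ sequences separated by length in the KO library. The 38-nt mt-Tv sequence had 1129 reads in WT and 226 in KO (KO/WT 0.197, 0.170 to 0.228). A 22-nt mt-Tv sequence with the same 3′ end had 91 and 69 (0.747, 0.538 to 1.03), so this shorter form was not higher in KO. The 33-nt mt-Tw sequence had 873 and 442 (0.499, 0.444 to 0.560), whereas the 22-nt mt-Tw sequence, which shares its 3′ end, had 407 and 510 (1.23, 1.08 to 1.41). The 37-nt mt-Tm sequence had 88 and 39 (0.437, 0.291 to 0.643). Within mt-Tw the longer sequence was thus the more abundant in WT and the shorter one in KO. Over all tRNAs, CCA fragments that began within 5 nt of the anticodon had 2692 (WT) and 934 (KO) reads (0.342, 0.317 to 0.368), while those that began further 3′ had 944 and 1127 (1.18, 1.08 to 1.28).

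**Figure D2:**
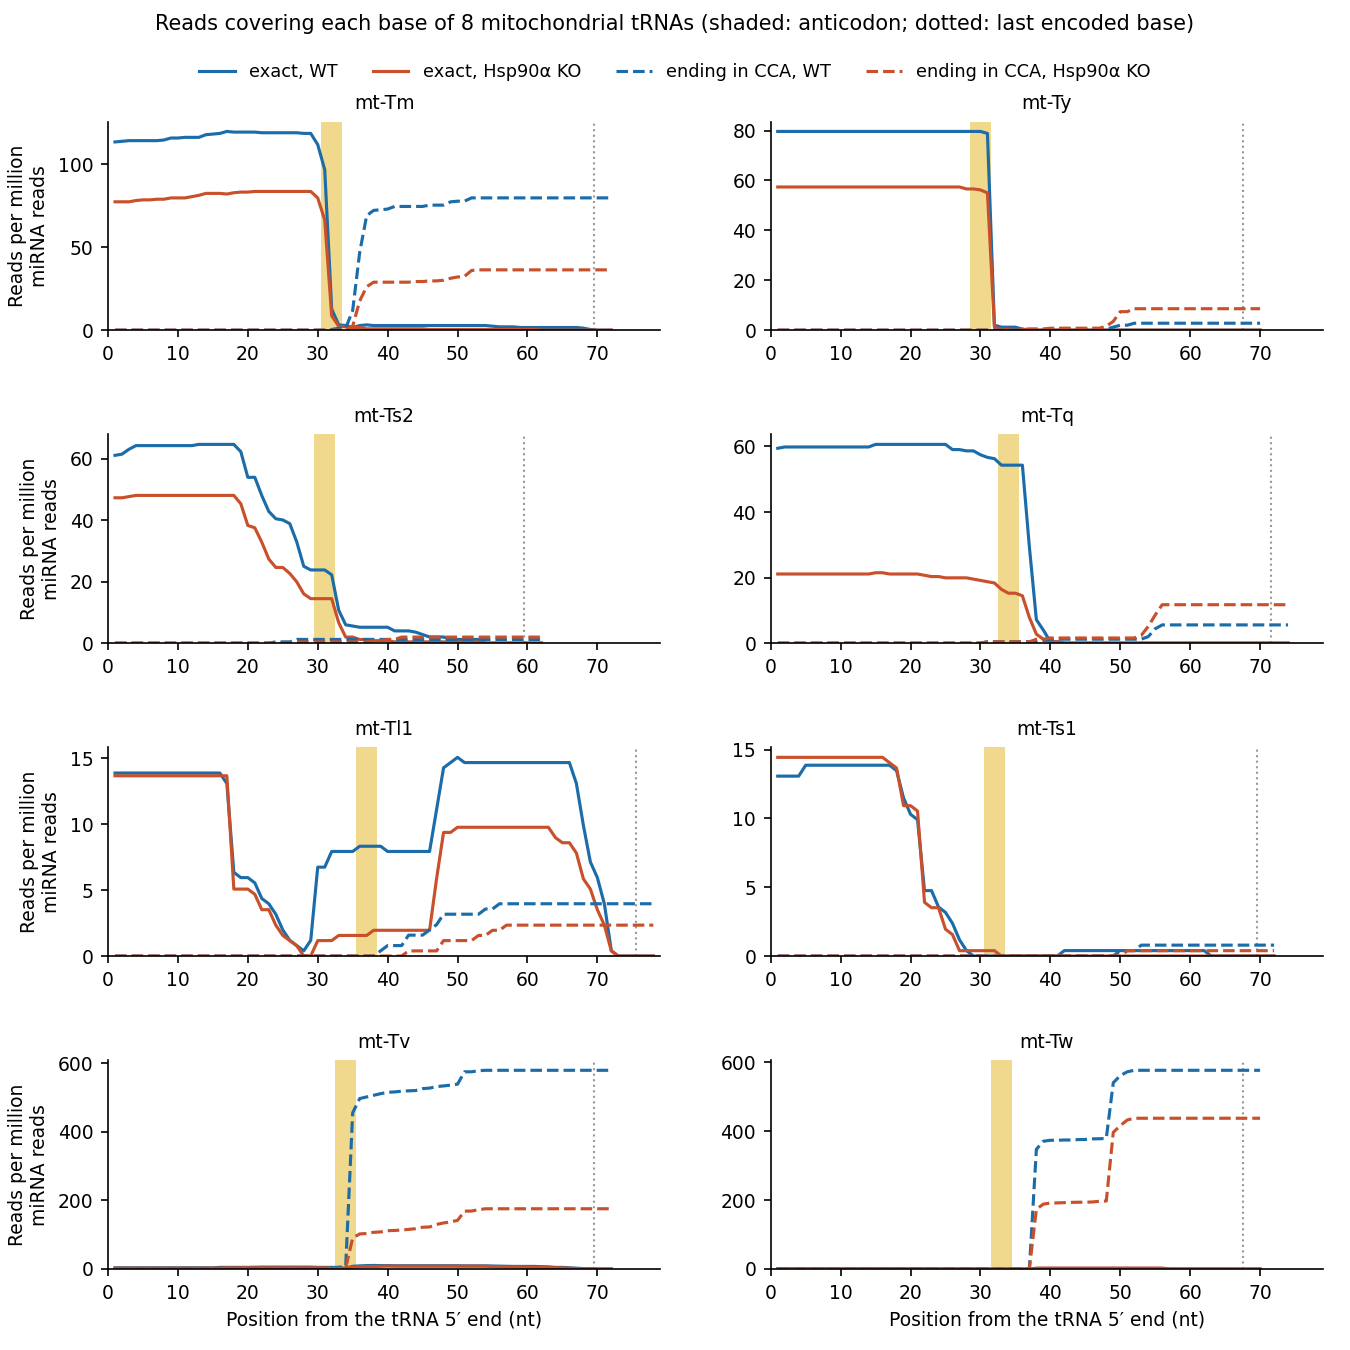
Reads per 1000000 miRNA reads that covered each base of the 6 tRNAs with the most exact sense reads and of mt-Tv and mt-Tw (x axis: position from the tRNA 5′ end in nt; y axes differ between panels). Solid lines are exact matches and dashed lines are fragments ending in CCA, for WT and Hsp90α KO; mt-Tm, mt-Ty and mt-Tq show 5′ fragments that stop at or just after the shaded anticodon, while mt-Tv and mt-Tw show almost only CCA fragments.

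The large rRNA mt-Rnr2 was the main single source of exact fragments. It had 1915 (WT) and 1565 (KO) sense reads (KO/WT 0.805, 0.752 to 0.861), whereas the small rRNA mt-Rnr1 had 103 and 67 (0.641, 0.464 to 0.880). In mt-Rnr2, 80.1% of the reads in WT (1533) and 82.6% in KO (1292) began at the first annotated base. In mt-Rnr1 only 17 and 11 reads did so, and the rest were spread over the gene. The 25-nt mt-Rnr2 sequence shown above had 431 (WT) and 365 (KO) reads (0.834, 0.724 to 0.961), and the 24-nt form 1 base shorter had 373 and 362. Sequences of 20 and 21 nt had 142 and 204 reads in WT and 92 and 203 in KO.

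The 5′-end family of mt-Rnr2 gave a comparison of lengths in which all fragments had the same start. Fragments of 16 to 23 nt had 500 (WT) and 454 (KO) reads (KO/WT 0.894, 0.786 to 1.02). Those of 24 to 33 nt had 902 and 825 reads (0.901, 0.819 to 0.991). Between these classes the KO/WT did not differ beyond counting error (quotient 1.01, 0.860 to 1.18; Fisher's exact p = 0.936). Those of 34 to 48 nt had 131 reads in WT and 13 in KO (0.098, 0.051 to 0.173), lower than in the shortest class by a factor of 0.109 (0.061 to 0.196; Fisher's exact p = 4.76e-21).

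Inside mt-Rnr2 a few starts stood out. Fragments that began at base 1070 (chrM 2163) were 34 to 39 nt long and had 45 reads in WT and 9 in KO (KO/WT 0.197, 0.085 to 0.408). Those from base 1562 (chrM 2655), close to the 3′ end of the gene, were 17 to 21 nt long and had 41 and 60 (1.44, 0.953 to 2.20). Those from base 237 had 19 and 17, and those from base 238, with a median length of 34 nt, had 15 and 11 (0.722, 0.3001 to 1.68). Of these 4 starts, the interval lay wholly below 1 for base 1070 and included 1 for the others.

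**Figure D3:**
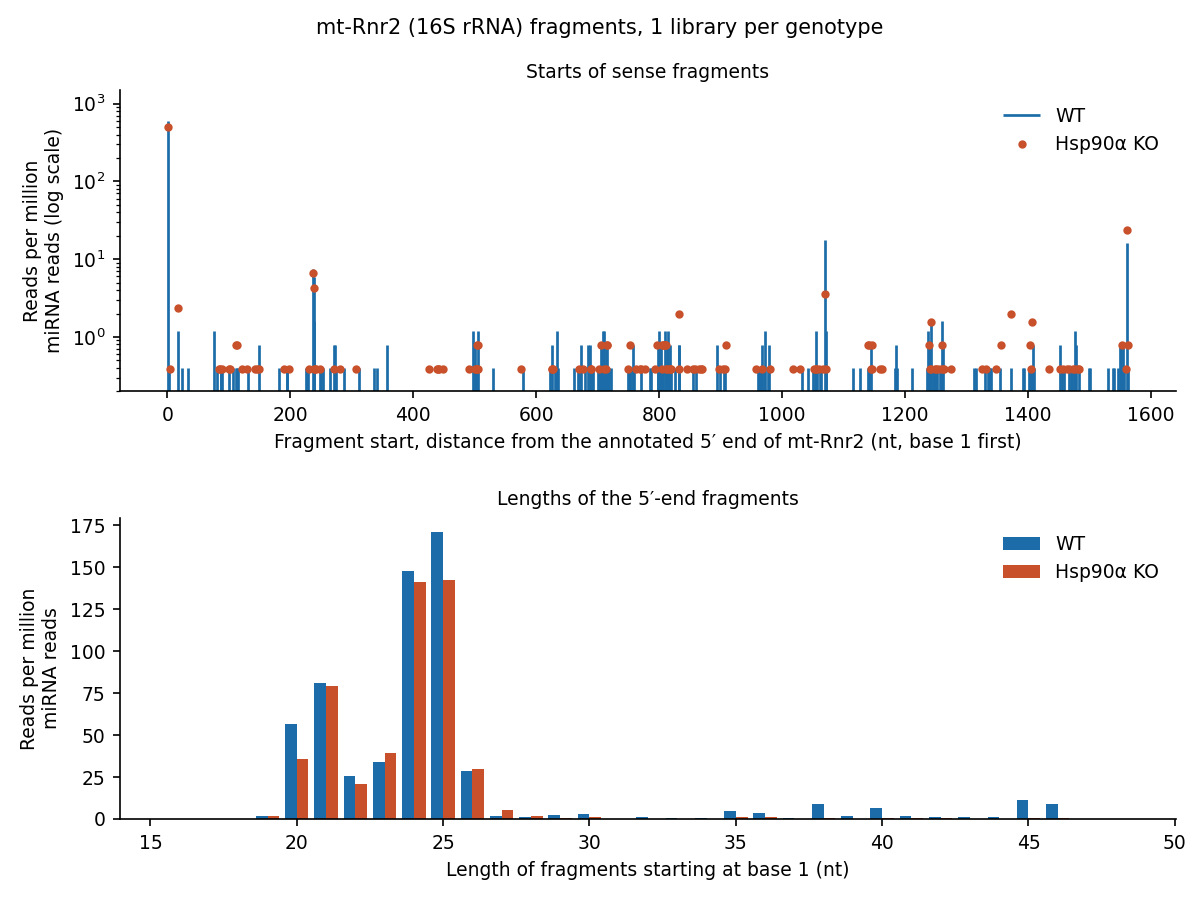
Sense fragments of mt-Rnr2. Top: reads per 1000000 miRNA reads (log axis) by fragment start in nt from the annotated 5′ end, with WT as lines and Hsp90α KO as points; bottom: the same unit by length (nt) for fragments that began at base 1. The first base dominates in both libraries, most of these fragments are 20 to 26 nt long, and the forms of 34 nt or more had 131 reads in WT against 13 in KO.

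Boundary reads could be sought only where neighbouring genes touch or overlap, because bases between genes are in no transcript. Within this limit, reads that crossed the boundary of neighbouring genes were few and came mainly from 1 place. They match no single transcript and are not among the counts above. They had 66 (WT) and 95 (KO) reads in 27 distinct sequences, of which 57 and 87 lay across the end of mt-Rnr2 and the start of mt-Tl1 on the plus strand (KO/WT 1.503, 1.06 to 2.14). The leading one was a 22-nt sequence with 37 (WT) and 54 (KO) reads. It began at the same base as the short 3′ fragments of mt-Rnr2 and ran 1 base past the annotated end of the gene. The boundary is shown with the first 20 bases of mt-Tl1 in capitals (chrM:2654-2695, plus strand), followed by the fragment (chrM:2655-2676). Whether this base belongs to the mature rRNA or was added after transcription cannot be told from the match.
mt-Rnr2 end and mt-Tl1 start: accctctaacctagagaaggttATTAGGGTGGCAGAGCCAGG
boundary fragment: ccctctaacctagagaaggtta

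Fragments of the 13 mRNAs were sparse and mostly inner. All 13 had sense reads, and 86.1% (WT) and 87.7% (KO) of these were inner. The most were from mt-Nd5, a subunit of complex I of the respiratory chain, with 44 and 36 reads (KO/WT 0.806, 0.504 to 1.28). The cytochrome c oxidase subunit mt-Co1 had 31 and 27 (0.858, 0.493 to 1.49), and mt-Nd6, the only mRNA of its strand, had 25 and 15 (0.591, 0.290 to 1.17). All of these intervals included 1. For mt-Co1 only 10 of the 31 WT and 18 of the 27 KO reads matched no other gene, and on these the direction turned, to a KO/WT of 1.77 (0.776 to 4.30). For mt-Co2, mt-Co3, mt-Atp6 and mt-Nd4l no sense read was free of a match to another gene. Over all mRNAs, reads that matched no other gene had a KO/WT of 0.743. In mt-Nd6, 11 WT reads and 0 KO reads began at the first base, and 9 of the WT reads were 1 sequence of 41 nt. At 41 nt all reads other than miRNA had a KO/WT of 0.091.

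Antisense fragments clustered at mt-Nd5. It had 80 (WT) and 57 (KO) antisense reads, followed by the proline tRNA mt-Tp with 27 and 22 and the isoleucine tRNA mt-Ti with 15 and 17. At mt-Nd5, 53 (WT) and 46 (KO) of the reads shared 1 3′ end at chrM 13161, in 20 sequences of 20 to 43 nt with different 5′ ends. The leading forms are printed as sequenced, on the minus strand, with that 3′ end last.
mt-Nd5 antisense (chrM:13161-13181): gaggactggaatgctggttgg
mt-Nd5 antisense (chrM:13161-13188): gtattgtgaggactggaatgctggttgg

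The KO/WT of mitochondrial fragments differed by length. Sense fragments of 16 to 23 nt, the range of miRNAs, had 941 (WT) and 880 (KO) reads and a KO/WT of 0.921 (0.839 to 1.01; exact binomial p = 0.0829). Those of 24 to 33 nt, the range in which the study counted piRNAs, had 1853 and 1509 reads and a KO/WT of 0.802 (0.749 to 0.859; exact binomial p = 1.89e-10). Those of 34 to 48 nt had 527 and 125 reads and a KO/WT of 0.234 (0.191 to 0.284; exact binomial p = 4.12e-61). The ratio was lower in the middle class than in the shortest by a factor of 0.871 (0.777 to 0.976; Fisher's exact p = 0.0181), and in the longest class by a factor of 0.254 (0.204 to 0.315; Fisher's exact p = 3.82e-41). The longest class made 15.9% of the sense reads in WT and 4.97% in KO.

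Each kind of mitochondrial transcript had its lowest KO/WT in the longest class. For 34 to 48 nt the ratio was 0.265 (0.194 to 0.356) for tRNAs, 0.198 (0.146 to 0.266) for rRNAs and 0.305 (0.150 to 0.579) for mRNAs. Antisense fragments of that length had 44 (WT) and 10 (KO) reads and a ratio of 0.224 (0.1005 to 0.451). Fragments ending in CCA went from 1.21 (1.10 to 1.33) at 16 to 23 nt through 0.599 (0.544 to 0.659) at 24 to 33 nt to 0.253 (0.228 to 0.281) at 34 to 48 nt. At 24 to 33 nt tRNA fragments had a ratio of 0.712 (0.633 to 0.800) and rRNA fragments one of 0.873 (0.799 to 0.953), and these differed (quotient 0.815, 0.706 to 0.942; Fisher's exact p = 0.00592). In the shortest class the corresponding quotient was 1.05 (0.832 to 1.33; Fisher's exact p = 0.721).

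The same order by length was measured outside mitochondria. Nuclear structural RNA fragments had a KO/WT of 1.07 (1.03 to 1.10), 0.827 (0.810 to 0.844) and 0.214 (0.207 to 0.221) in the 3 classes, and 0.304 (0.291 to 0.316) in the longest without Gm26202. All reads other than miRNA had 0.961, 0.638 and 0.304, and even the miRNA hairpin reads of 34 to 48 nt, 1045 in WT and 308 in KO, had 0.290 (0.255 to 0.330). Mitochondrial fragments of 24 to 33 nt did not differ beyond counting error from the structural RNAs (quotient 0.970, 0.904 to 1.04; Fisher's exact p = 0.415). At 16 to 23 nt they had the lower ratio (quotient 0.865, 0.785 to 0.952; Fisher's exact p = 0.00333). At 34 to 48 nt the quotient was 1.09 (0.896 to 1.33; Fisher's exact p = 0.379) with Gm26202 and 0.770 (0.631 to 0.939; Fisher's exact p = 0.00909) without it. Against all reads other than miRNA, which hold the piRNAs, the KO/WT of mitochondrial fragments of 24 to 33 nt was higher by a factor of 1.26 (1.17 to 1.35; Fisher's exact p = 5.39e-11). At 34 to 48 nt it was lower than that of these reads by a factor of 0.767 (0.631 to 0.933; Fisher's exact p = 0.00738). With 1 library per genotype, a difference in the sizes taken into each library and an effect of the genotype on long fragments cannot be told apart.

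**Figure D4:**
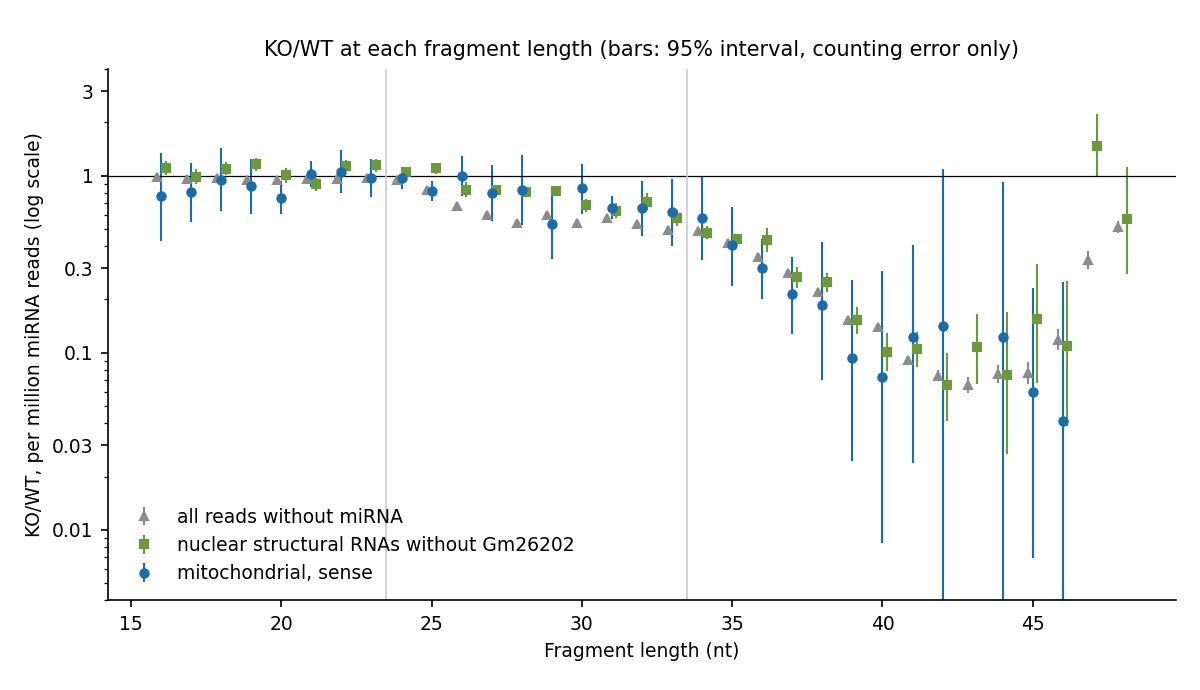
KO/WT of reads per 1000000 miRNA reads (log axis) at each fragment length in nt, for mitochondrial sense fragments, nuclear structural RNA fragments without Gm26202 and all reads without miRNA; bars are 95% intervals for counting error, and lengths with 0 reads in a library are left out. All 3 sets are lower at long lengths, but all reads without miRNA fall earlier: at 26 nt their ratio was 0.674, beside 0.993 for mitochondrial and 0.835 for structural RNA fragments, and at 40 nt mitochondrial fragments had 27 WT and 2 KO reads.

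The length makeup was weighed against the totals. If each mitochondrial length had had the KO/WT of the nuclear structural RNAs at that length, the WT length makeup would have given 0.824 for all sense fragments, beside the measured 0.746. With the ratios of all reads other than miRNA it would have given 0.716. For tRNA fragments the values were 0.682 and 0.593 beside the measured 0.667, and for fragments ending in CCA 0.544 and 0.471 beside 0.558. For rRNA fragments they were 0.905 and 0.786 beside 0.797, and for mRNA fragments 0.788 and 0.682 beside 0.666. The measured values of all sense, tRNA and rRNA fragments thus lay between the 2 length-weighted values, that of the CCA fragments just above both and that of the mRNA fragments below both.

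A mismatch at position 9 was frequent in tRNA fragments of both libraries. Sequences of at least 20 nt that matched no gene exactly were compared with the mitochondrial transcripts allowing 1 mismatch, and 571 (WT) and 402 (KO) sense reads were found. Of these, 209 and 131 had the mismatch at position 9 of a tRNA, counted from its first base. Among reads that covered this position, a mismatch was present in 71.6% (WT, 83 of 116) and 69.8% (KO, 44 of 63) for the 13 tRNAs with A there, and in 24.2% (126 of 521) and 27.9% (86 of 308) for the 6 tRNAs with G. For the 2 tRNAs with C it was present in 0 of 315 reads in WT, which allows up to 0.952%, and in 0.431% in KO (1 of 232). For mt-Ts2, the 1 tRNA with U, it was in 0 of 130 and 0 of 97, which allows up to 2.31% and 3.09%. Pooled over tRNAs, the mismatch was thus common at a purine and near absent at a pyrimidine. The G value rested largely on 1 tRNA, as mt-Ty gave 107 of the 126 mismatch reads at G in WT. At A, mt-Tv gave 45 of the 83 in WT, but other tRNAs had high shares on few reads. The mismatch was in 9 of 9 (WT) and 9 of 9 (KO) reads of mt-Tl2 and in 9 of 9 and 1 of 1 of mt-Tn. In mt-Tk it was in 8 of 12 and 5 of 10. Some purine tRNAs had low shares, among them mt-Tp, with A, at 2 of 19 (WT) and 2 of 7 (KO) reads.

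By tRNA, mt-Tv had the mismatch in 83.3% of the WT reads (45 of 54; Wilson interval 71.3% to 90.98%) and 80.8% of the KO reads (21 of 26; 62.1% to 91.5%). In mt-Ty it was in 34.7% (107 of 308; 29.6% to 40.2%) and 33.8% (75 of 222; 27.9% to 40.2%), and in mt-Tq in 3.82% (6 of 157) and 1.85% (1 of 54). The libraries did not separate in any of the 3, whose intervals overlapped. Several bases were read at the position: in mt-Ty G9T had 67 (WT) and 49 (KO) reads, G9C 27 and 17, and G9A 13 and 9, and in mt-Tv A9T had 30 and 17, A9G 11 and 2, and A9C 4 and 2. The first base of each token is the reference base and the last the sequenced base. The first 24 bases of both tRNAs are shown with base 9 in capitals, beside mt-Tm and mt-Ts2, which have a pyrimidine there. Reads with a mismatch are outside the exact-match counts above, so these counts leave out most mt-Tv 5′ fragments. The same holds in WT for the reads over position 9 of mt-Tl2 and mt-Tn, 9 of 9 for each.
mt-Tv (chrM:1025-1048, plus strand): catagtgtAgcttaatattaaagc
mt-Ty (chrM:5303-5326, minus strand): ggtaaaatGgctgagtaagcatta
mt-Tm (chrM:3845-3868, plus strand): agtaaggtCagctaattaagctat
mt-Ts2 (chrM:11613-11636, plus strand): aagaaagaTtgcaagaactgctaa

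**Figure D5:**
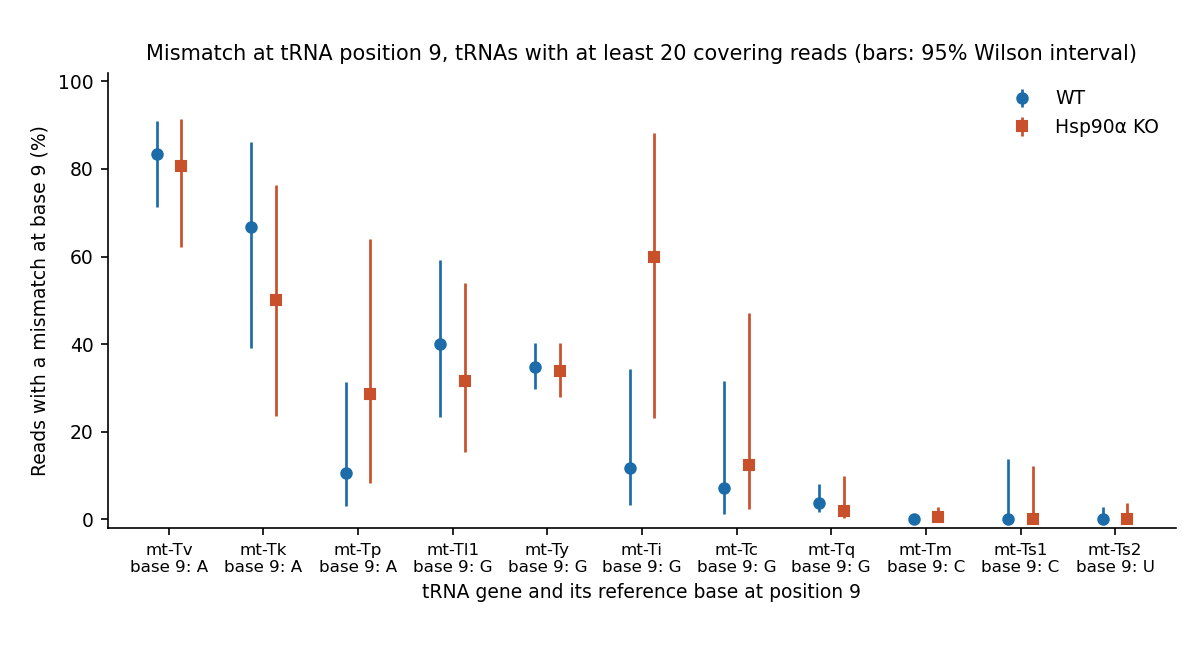
Share of covering reads with a mismatch at position 9 (percent, y axis) for each tRNA with at least 20 covering reads, ordered by the reference base at that position, for WT and Hsp90α KO with 95% Wilson intervals. Values run from 83.3% in mt-Tv (WT) to 0 in mt-Ts2, and the intervals of the libraries overlap for every tRNA shown.

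Sense mitochondrial fragments of 24 to 33 nt rarely began with U, the usual first base of piRNAs. U was first in 4.80% (WT, 89 of 1853; Wilson interval 3.92% to 5.87%) and 4.11% (KO, 62 of 1509; 3.22% to 5.23%) of the reads (Fisher's exact p = 0.358). Nuclear structural fragments of the same length had 42.7% and 44.3%, and all reads other than miRNA 42.3% and 38.4%. A was first in 75.7% and 78.1%, and without mt-Rnr2 in 54.1% and 54.5%. At position 10, where secondary piRNAs usually have A, A was present in 70.3% (WT) and 72.6% (KO), and without mt-Rnr2 in 42.6% and 40.4%. Nuclear structural fragments had A there in 16.8% and 14.2%, and all reads other than miRNA in 25.7% and 24.005%. Many of these fragments began at the first base of mt-Rnr2 or of mt-Tm, and both genes have A at the first base and at base 10. Fragments with these fixed starts therefore carry A at both positions, and these shares do not show that the fragments are piRNAs. Antisense fragments of 24 to 33 nt had U first in 31.3% (26 of 83) and 40.0% (34 of 85).

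Nuclear genes of mitochondrial RNA synthesis, processing and decay gave few fragments. Of 20 listed genes, 19 were found in the annotation by symbol, 15 had reads and 0 had at least 50 reads. Together they had 62 (WT) and 49 (KO) reads and a KO/WT of 0.778 (0.524 to 1.15). Slirp, whose protein binds mitochondrial mRNAs, had the most, with 24 and 15. Elac2, the tRNA 3′ end nuclease, had 7 and 5, Polrmt, the mitochondrial RNA polymerase, 4 and 6, Trmt10c 2 and 1, and Trnt1 1 and 0. These are fragments of mRNA in a small RNA library and do not measure the expression of the genes.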

How the data were processed

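Small RNA libraries of WT and Hsp90α KO testes (TruSeq kit, MiSeq, 50-nt single reads) were used as deposited: raw read counts per distinct sequence of 11 to 48 nt, made by the authors by clipping the adaptor, with no normalization. Per the submitters' processing notes the genome build was mm9, and the matching below used no genome.

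Sequences of 16 nt or more were matched without mismatch to the 141767 GENCODE M21 transcripts, sense and antisense. Counts were scaled to reads on 2202 miRNA hairpin genes, and the background of all genes used reads that match 1 gene alone. Ratios carry Clopper-Pearson 95% intervals and a two-sided exact binomial test. Quotients of ratios carry a log-scale interval and Fisher's exact test, and shares a Wilson interval and Fisher's exact test. The coverage of the ratio intervals and the placement of fragments drawn from the transcripts were checked on simulated data (Python 3.11.15, SciPy 1.17.1). The quotients and shares were not checked in this way. Counts of 0 were given the limit of 3 reads. Over 53 such tests, all 33 with p below 0.05 stayed below it after Benjamini-Hochberg adjustment (largest adjusted p 0.0291, Fisher's exact tests included).

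Named genes were the 6 tRNAs with most sense reads, both rRNAs, the 3 leading mRNAs, the lowest and highest KO/WT among genes with at least 50 reads, genes with no read and the 3 genes with most antisense reads. Members and lists were chosen with earlier results of these data known. The tRNAs named for CCA ends and position 9, and the 5 nt around the anticodon, were chosen after their values were seen. Anticodons were placed by triplet and stem pairing. Alternatives changed the scaling, low-count filter, match, length and end rules.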

Additional observations from a re-analysis of the deposited data

How the results depend on the processing

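No paired analysis was possible because the labels give 1 library per genotype and no shared replicate numbers. No library could be left out, since each is the only one of its genotype. Of 97 recomputed values, 71 kept their direction and side of the threshold. Scaling to nuclear structural RNA reads turned KO/WT to 1.20 (all sense), 1.08 (tRNA), 1.29 (rRNA), 1.07 (mRNA), 1.22 (antisense), 1.49 (16 to 23 nt) and 1.29 (24 to 33 nt). Those of tRNA, mRNA and antisense fragments were not past the threshold (exact binomial p = 0.124, 0.517 and 0.0615). Scaling to all reads gave 1.07 at 16 to 23 nt and 0.878 for antisense fragments. Counting each distinct sequence once gave 0.917 (tRNA), 0.831 (mRNA), 0.845 (antisense) and 0.915 (24 to 33 nt), a quotient of 24 to 33 nt over 16 to 23 nt of 0.946, none of them past the threshold, and a mitochondrial over structural quotient of 0.904. Requiring 2 reads gave 0.902 for antisense fragments and moved the mRNA KO/WT from 0.666 to 0.427. Counting added C, CC or CCA tails, chosen after seeing the data, gave 1.05 at 16 to 23 nt and 0.645 for all sense fragments. Leaving out Gm26202, also chosen after seeing the data, gave a mitochondrial over structural quotient of 1.01, and leaving out mt-Rnr2 gave 0.665 for all sense fragments. At 34 to 48 nt the KO/WT stayed below 1 in all 8 alternatives (0.182 to 0.444).

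KO minus WT in the 5′ share of tRNA fragments, 0.0101 points as reported, was -0.390 with sequences that match no other gene and -0.590 with ends within 2 nt. In the 3′ share, 0.0707 points, it was -0.360 with at least 2 reads and -0.306 with ends within 2 nt. The 2 genes past 1.5-fold became 1 with at least 2 reads per sequence, 0 with distinct sequences, 8 with genes of at least 20 reads, and 1 with all reads as the scale. The rule of 20 reads lets more genes in than that of 50. Shares over all genes at these settings are not given, so the counts do not show a change in the share of mitochondrial genes past 1.5-fold. The cause of these changes was not tested. Depth limits the genes: 26 of the 37 had under 50 reads in all.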
